A study of Homo sapiens with 12 samples.

Results

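The 45 genes described here are interferon-induced genes, transcription factors of the interferon response and genes of MHC class I antigen presentation, measured by RNA-seq in PC3 cells, a human prostate cancer line that was derived from a bone metastasis. They were chosen as a list of gene symbols, each matched to its Ensembl ID, and make up 45 of the 60676 genes in the count table. Of these, 44 had at least 10 counts summed over the 12 libraries and were tested, among 20364 genes in all. The remaining gene, DHX58, which encodes a relative of the RNA sensors, had 3 counts over all libraries and was not tested.

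The study asked how SFRP2, a secreted protein that binds WNT ligands, and a collagen type I matrix change PC3 cells. PC3 SFRP2 cells stably overexpressed SFRP2 from a Sleeping Beauty transposon plasmid, and PC3 cells carried the same plasmid without an insert. Both were selected with puromycin and sorted for red fluorescent protein. The sources name no independently made lines, so a difference between PC3 SFRP2 and PC3 cells may also be a difference between these populations. In each flask 100000 cells were seeded and grown for 5 days on a collagen type I coating (COL1) or on uncoated cell culture polystyrene (CCP). There were 3 libraries in each of the 4 groups, COL1-PC3 SFRP2, COL1-PC3, CCP-PC3 SFRP2 and CCP-PC3. The labels call them biological replicates. The methods speak of triplicates and of repeats for experiments in general, without saying which of these the libraries are, so the p-values cover a spread that may in part be technical.

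Type I interferons bind the receptor IFNAR1/IFNAR2 and activate the kinases JAK1 and TYK2, which phosphorylate STAT proteins. STAT2 and IRF9 are parts of the complex ISGF3, which binds a DNA element built of GAAA half-sites in the promoters of interferon-stimulated genes. The products inhibit viral replication in many ways, and interferon also raises MHC class I molecules and the transporter TAP, through which peptides reach them for display to T cells. Interferon-stimulated genes are known to be expressed at a standing level in many tumour lines without added interferon.

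Promoters of the genes were searched for GAAA, any 2 bases and GAAA (on the other strand TTTC, any 2 bases, TTTC), from 250 bases before to 50 bases after the first transcription start that RefSeq lists (GRCh38.p14). A promoter was found for 35 of the 45 genes, and IFIT2, IFITM2, MX2, OAS2, OASL, IRF7, DHX58, HLA-E, USP18 and TRIM22 were not matched. The element was present in 23 of 35 (65.7%), against 996 of 27305 promoters in all (3.65%). Neighbouring elements can share a half-site, as in ISG15. The stretches below come from genes that the comparisons turn on, and each is read 5′ to 3′ on the strand of its gene. Half-sites are in capitals for elements that lie wholly before the start. IFITM1 and IFIT5 each have a further element that reaches past the start and is not marked. The first 4 are of genes whose RNA was higher in COL1-PC3 SFRP2 than in COL1-PC3:
ISG15: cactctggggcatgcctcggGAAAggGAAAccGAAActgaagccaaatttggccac
IFI6: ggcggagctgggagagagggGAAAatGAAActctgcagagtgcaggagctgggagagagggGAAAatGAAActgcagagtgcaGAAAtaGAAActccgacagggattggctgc
IFITM1: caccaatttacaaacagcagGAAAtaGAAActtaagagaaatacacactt
TAP1: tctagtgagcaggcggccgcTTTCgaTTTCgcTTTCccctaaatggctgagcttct
The next 4 are of genes that were not higher there, of which IFIT5 and SAMD9 were lower than in CCP-PC3 SFRP2:
IFIT1: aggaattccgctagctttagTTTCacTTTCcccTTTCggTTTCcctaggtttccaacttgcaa
IFIT5: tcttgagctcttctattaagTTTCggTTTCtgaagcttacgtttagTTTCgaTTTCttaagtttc
SAMD9: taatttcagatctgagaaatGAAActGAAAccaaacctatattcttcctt
B2M: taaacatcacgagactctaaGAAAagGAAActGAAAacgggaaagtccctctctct
They lie at chr1:1013364-1013419 (plus strand, ISG15), chr1:27672256-27672368 (minus, IFI6), chr11:313980-314029 (plus, IFITM1), chr6:32853803-32853858 (minus, TAP1), chr10:89392487-89392549 (plus, IFIT1), chr10:89414503-89414567 (plus, IFIT5), chr7:93118086-93118135 (minus, SAMD9) and chr15:44711353-44711408 (plus, B2M). The element was in 10 of 16 matched promoters (62.5%) of genes that were higher in COL1-PC3 SFRP2 than in COL1-PC3 and in 13 of 19 (68.4%) of the others. All 5 genes that were lower on COL1 in PC3 SFRP2 cells carried it. So did 10 of 16 (62.5%) that were higher there and 8 of 14 (57.1%) of the others. With the GC correction described further on, 0 genes passed as lower in that comparison, and a part of the element in the changes was not tested.

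The libraries held 5529459 to 6309800 counts in COL1-PC3 SFRP2, 5893267 to 9059700 in COL1-PC3, 7446136 to 8380405 in CCP-PC3 SFRP2 and 7472812 to 9975972 in CCP-PC3. Levels are given as CPM (counts scaled to a library of 1000000) after TMM scaling of the library sizes. SFRP2 was at 15681, 10421 and 31131 CPM in COL1-PC3 SFRP2 and at 26.95, 20.5 and 10.9 CPM in COL1-PC3. On CCP it was at 15990, 15060 and 18583 CPM in PC3 SFRP2 and 10.7, 15.9 and 24.3 CPM in PC3 cells. Every library thus matched the cells named in its label. SFRP2 did not pass between COL1 and CCP in PC3 SFRP2 cells (log2 fold change 0.21, adjusted p = 0.698 by edgeR's quasi-likelihood test). Its level therefore cannot check the surface named in a label. The third COL1-PC3 SFRP2 library stood apart: its correlations with the other 2 libraries of its group were 0.945 and 0.932, against 0.974 to 0.986 for all other pairs within a group, and mitochondrial genes took 7.17% of its counts, against 13.7% and 16.8% in those 2 libraries and 19.8% to 24% in the other 9. A second deposited table holds other counts under this library's name (7300197 in total, with 22431 genes different), and the sources do not settle which is right. In that second version ISG15 was at 51.6 CPM, TAP1 at 10.99 CPM and HLA-B at 29.2 CPM, levels near those of CCP-PC3 SFRP2. The results below use the table of 12 libraries, and the counts of genes passing are also given without this library and with its second version. Epithelial markers summed to 3536 to 6886 CPM in COL1-PC3 SFRP2 and 2031 to 2635 CPM in COL1-PC3. On CCP they summed to 1755 to 1775 CPM in PC3 SFRP2 and 1716 to 2116 CPM in PC3 cells. Of these 5 genes, 3 (KRT8, KRT18 and KRT19) were higher in COL1-PC3 SFRP2 than in COL1-PC3, beside 18.1% of all genes. They were also higher there than in CCP-PC3 SFRP2, beside 19.9% of all genes. The other 2, EPCAM and CDH1, did not pass, with positive fold changes in the first comparison and negative ones in the second. Leukocyte markers (5 genes) summed to at most 0.93 CPM in any library.

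PC3 cells on CCP already held RNA of most of these genes. Per kb of exon, IFITM3 was highest in CCP-PC3 at 106 CPM per kb, followed by B2M at 82.5, IFI6 at 47.3 and ISG15 at 46.3 CPM per kb. IFITM3 restricts the entry of enveloped viruses, and B2M is the light chain of every MHC class I molecule. In COL1-PC3 SFRP2 the order was IFITM3 at 387, ISG15 at 310.3 and IFITM2 at 129 CPM per kb, and B2M was at 69.02 CPM per kb. XAF1, TRIM22 and BST2 were near 0, with 10, 57 and 74 counts over the 12 libraries. Because RNA was taken from whole cultures, a change in the share of cells that use a gene and a change in its RNA per cell cannot be told apart.

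The map of the genes by library shows where they moved together.

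**Figure D1:**
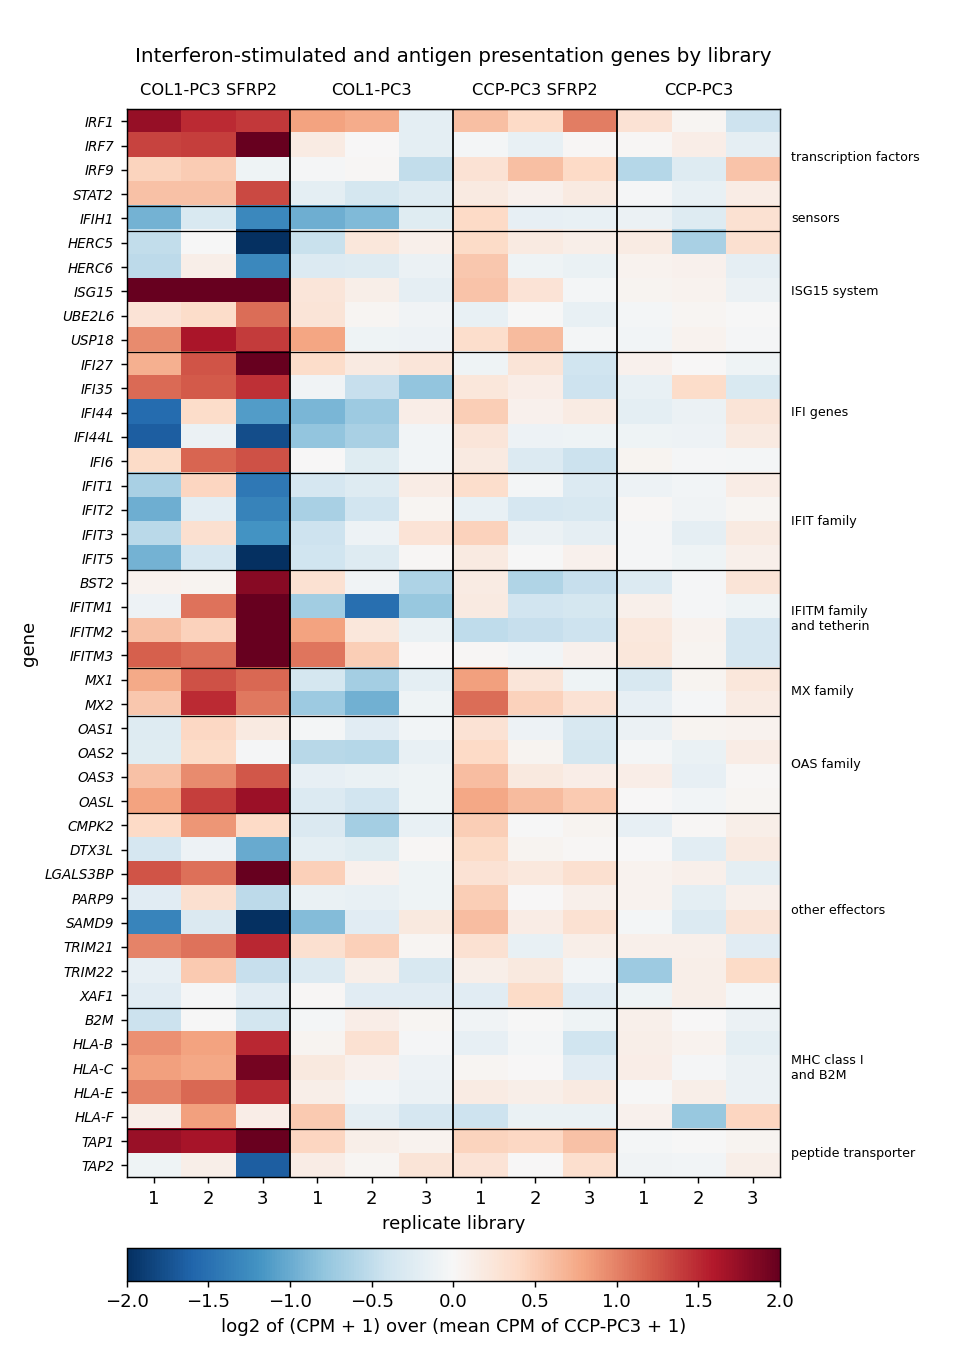
Level of each of the 44 tested genes (rows, grouped by role) in each of the 12 libraries (columns), as the log2 ratio of CPM to the mean of CCP-PC3, with 1 CPM added to both and colours ending at 2 in either direction. The COL1-PC3 SFRP2 columns are red for ISG15, IRF7, TAP1, HLA-B, HLA-C and HLA-E and blue for the IFIT genes and SAMD9 in the first and the third library, and the CCP columns are mostly paler, apart from MX2 in the first and IRF1 in the third CCP-PC3 SFRP2 library.

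On COL1, 22 of the 44 genes were higher in PC3 SFRP2 than in PC3 cells and 0 were lower (edgeR's quasi-likelihood test, adjusted p under 0.05 over all 20364 genes), where 18.1% of all genes were called higher and 17.1% lower. The median log2 fold change was 0.99 for the 44 genes and 0.005 for all genes. It was 0.764 for the 44 genes without the third COL1-PC3 SFRP2 library, 0.595 with the correction for GC content described further on, and 0.468 with the second version of that library. In PC3 SFRP2 cells, 21 genes were higher and 5 lower on COL1 than on CCP, where 19.9% of all genes were called higher and 17.7% lower, and the medians were 0.663 and -0.038. Here the median of the 44 genes was 0.272 after the GC correction, 0.252 with the second version of the third library and 0.447 when that library was dropped. Both comparisons use the same libraries of COL1-PC3 SFRP2 and are therefore not independent. Dropping the third COL1-PC3 SFRP2 library left 21 genes higher and 1 lower for SFRP2 on COL1 (16.8% and 17.7% of all genes). For COL1 in PC3 SFRP2 cells it left 20 higher and 4 lower (18.6% and 18.2% of all genes). Leaving out the second library of that group gave 24 higher and 9 lower for SFRP2 on COL1 (20.3% and 21% of all genes). The same fit gave 20 higher and 14 lower for COL1 in PC3 SFRP2 cells (20.9% and 22.7% of all genes). Leaving out the first CCP-PC3 SFRP2 library gave 17 higher and 0 lower for COL1 in PC3 SFRP2 cells (14.4% and 14.4% of all genes). With the second version of the third library, 3 genes passed for SFRP2 on COL1 (ISG15, OASL and TAP1) and 0 for COL1 in PC3 SFRP2 cells. Few genes of the whole table passed with that version, 223 of 20404 for SFRP2 on COL1 (0.368% higher and 0.725% lower) and 4 for COL1 in PC3 SFRP2 cells.

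On CCP, 0 of the 44 genes passed between PC3 SFRP2 and PC3 (background 0.0295% higher and 0.0491% lower), in edgeR and in DESeq2, and 4 were higher at an unadjusted p under 0.05. These were OASL at a log2 fold change of 0.69 (unadjusted p = 0.00888), TAP1 at 0.54 (0.018), IRF1 at 0.80 (0.0238) and MX2 at 0.72 (0.0341). In PC3 cells, 0 of the 44 genes passed between COL1 and CCP (background 0% in both directions), again with both tools, and 1 was lower at an unadjusted p under 0.05: IFIH1 at -0.67 (0.0316). In a fit of the 6 CCP libraries alone, 7 genes passed for SFRP2 on CCP (MX2, OAS3, OASL, IRF1, SAMD9 and LGALS3BP higher, IFITM2 lower), and in that fit 2.26% of 18253 genes were called higher and 2.62% lower. The medians were 0.104 for SFRP2 on CCP, against -0.044 for all genes, and -0.125 for COL1 in PC3, against -0.023.

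**Figure D2:**
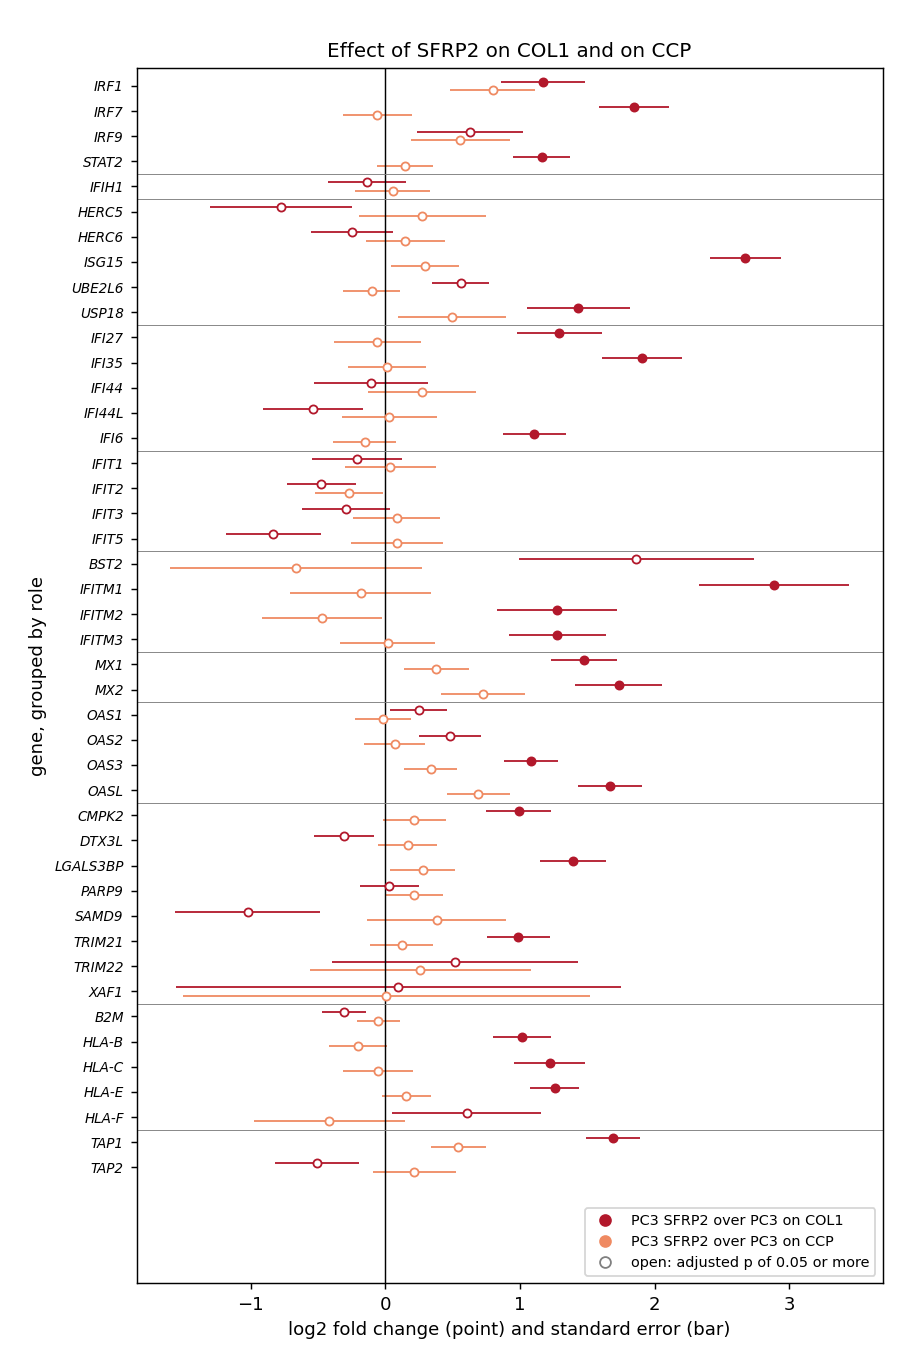
Log2 fold change (points) with its standard error (bars) of PC3 SFRP2 over PC3 cells, on COL1 in dark red and on CCP in orange, for the 44 tested genes grouped by role. Filled points passed at an adjusted p under 0.05, which 22 genes did on COL1 and 0 on CCP, and the IFIT family and B2M lie left of 0 on COL1.

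Among the transcription factors, 3 of 4 were higher in COL1-PC3 SFRP2 in both comparisons. For this role and those that follow, the shares of all genes called were 18.1% higher and 17.1% lower for SFRP2 on COL1. For COL1 in PC3 SFRP2 cells they were 19.9% and 17.7%. IRF7, the factor that amplifies type I interferon production (ENSG00000185507, chromosome 11 of GRCh38, 612553 to 615983), was at 46.5, 47.2 and 94.8 CPM in COL1-PC3 SFRP2 and at 19.7, 17.5 and 15.2 CPM in COL1-PC3. On CCP, IRF7 was at 17.05, 15.7 and 17.7 CPM in PC3 SFRP2 and 17.8, 19.4 and 15.4 CPM in PC3 cells. All 3 COL1-PC3 SFRP2 libraries were above the other 9, and the third stood well above its own group. The log2 fold change, with its standard error (SE), was 1.85 (SE 0.26, adjusted p = 0.000448) for SFRP2 on COL1 and 1.90 (SE 0.26, adjusted p = 0.000481) for COL1 in PC3 SFRP2 cells. IRF1, which is induced by interferon gamma and drives MHC class I genes, was at 18.5, 15.3 and 14.6 CPM in COL1-PC3 SFRP2 and at 9.11, 8.69 and 4.11 CPM in COL1-PC3. On CCP, IRF1 was at 7.79, 6.69 and 10.8 CPM in PC3 SFRP2 and at 6.12, 4.97 and 3.37 CPM in PC3 cells, and here too the libraries of PC3 SFRP2 lay above those of PC3. Its log2 fold change was 1.17 (SE 0.31, adjusted p = 0.00966) for SFRP2 on COL1 and 0.93 (SE 0.30, adjusted p = 0.0238) for COL1 in PC3 SFRP2 cells. Of IRF1's exonic bases 22.9% are shared with the antisense gene IRF1-AS1, and whether counting used the strand is not given in the sources used here.

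STAT2, the STAT that binds IRF9, was at 68.4, 68.8 and 115 CPM in COL1-PC3 SFRP2 and at 39.6, 35.2 and 37.8 CPM in COL1-PC3. On CCP, STAT2 was at 51.3, 48.2 and 51.4 CPM in PC3 SFRP2 and 44.8, 40.7 and 50.6 CPM in PC3 cells. The groups on COL1 did not overlap, and the change was 1.16 (SE 0.21, adjusted p = 0.00128) for SFRP2 on COL1 and 0.74 (SE 0.21, adjusted p = 0.0111) for COL1 in PC3 SFRP2 cells. IRF9, the DNA-binding part of ISGF3, was at 4.74, 5.05 and 2.99 CPM in COL1-PC3 SFRP2 and at 3.16, 3.32 and 1.998 CPM in COL1-PC3. On CCP, IRF9 was at 4.18, 5.40 and 4.58 CPM in PC3 SFRP2 and 1.83, 2.55 and 5.31 CPM in PC3 cells, and it passed in no comparison.

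The only sensor tested, IFIH1, encodes MDA5, which detects long double-stranded RNA. It was at 19.1, 30.4 and 14.97 CPM in COL1-PC3 SFRP2 and at 18.8, 20.2 and 31.9 CPM in COL1-PC3. On CCP, IFIH1 was at 50.3, 33.7 and 33.9 CPM in PC3 SFRP2 and at 35.1, 31.6 and 47.1 CPM in PC3 cells. All COL1-PC3 SFRP2 libraries were below all CCP-PC3 SFRP2 libraries, with a log2 fold change of -0.86 (SE 0.29, adjusted p = 0.0269), while the COL1 groups overlapped.

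Of the ISG15 system, 2 of 5 genes were higher for SFRP2 on COL1 and 3 of 5 for COL1 in PC3 SFRP2 cells. ISG15 itself, a ubiquitin-like protein that is joined to other proteins (ENSG00000187608, chromosome 1 of GRCh38, 1001138 to 1014540), had the lowest adjusted p of the 45 genes in both comparisons. It was at 199, 215 and 394 CPM in COL1-PC3 SFRP2 and at 47.8, 43.8 and 35.2 CPM in COL1-PC3. On CCP, ISG15 was at 60.1, 48.9 and 38.9 CPM in PC3 SFRP2 and 41.6, 42.1 and 36.8 CPM in PC3 cells. The COL1-PC3 SFRP2 libraries lay far above the other 9, which spanned 35.2 to 60.1 CPM. The log2 fold change was 2.67 (SE 0.26, adjusted p = 4.69e-05) for SFRP2 on COL1 and 2.45 (SE 0.26, adjusted p = 0.000197) for COL1 in PC3 SFRP2 cells. It passed for SFRP2 on COL1 in all 24 alternatives run.

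USP18, the protease that removes ISG15 and also inhibits the interferon receptor, was at 4.27, 7.49 and 6.19 CPM in COL1-PC3 SFRP2 and at 3.72, 1.58 and 1.55 CPM in COL1-PC3. On CCP, USP18 was at 2.48, 3.21 and 1.64 CPM in PC3 SFRP2 and 1.63, 1.88 and 1.68 CPM in PC3 cells, which is low throughout, with 255 counts in all. It was higher for SFRP2 on COL1 at 1.43 (SE 0.38, adjusted p = 0.00983) and for COL1 in PC3 SFRP2 cells at 1.29 (SE 0.37, adjusted p = 0.0125). UBE2L6, the conjugating enzyme for ISG15, was higher for COL1 in PC3 SFRP2 cells at 0.75 (SE 0.21, adjusted p = 0.0118), and its value for SFRP2 on COL1 was 0.56 (SE 0.21, adjusted p = 0.0502). The ligases HERC5 and HERC6 passed in neither comparison, with -0.77 and -0.25 for SFRP2 on COL1.

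Among the IFI genes, 3 of 5 were higher in both comparisons and 1 was lower for COL1 in PC3 SFRP2 cells. IFI6, a mitochondrial and endoplasmic reticulum protein with antiviral and anti-apoptotic roles (ENSG00000126709, chromosome 1 of GRCh38, 27666064 to 27672212), was at 58.3, 100.9 and 108 CPM in COL1-PC3 SFRP2 and at 44.4, 37.4 and 42.4 CPM in COL1-PC3. On CCP, IFI6 was at 50.2, 36.4 and 32.8 CPM in PC3 SFRP2 and 45.97, 43.8 and 43.1 CPM in PC3 cells. The first COL1-PC3 SFRP2 library was close to the controls and the other 2 were well above them. The change was 1.11 (SE 0.23, adjusted p = 0.0027) for SFRP2 on COL1 and 1.16 (SE 0.23, adjusted p = 0.00178) for COL1 in PC3 SFRP2 cells.

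IFI35, a leucine zipper protein induced by interferon (ENSG00000068079, chromosome 17 of GRCh38, 43006740 to 43014456), was at 15.3, 16.4 and 19.6 CPM in COL1-PC3 SFRP2 and at 6.13, 4.42 and 3.33 CPM in COL1-PC3. On CCP, IFI35 was at 7.68, 7.20 and 4.58 CPM in PC3 SFRP2 and 5.71, 8.60 and 5.05 CPM in PC3 cells, so that the COL1-PC3 SFRP2 libraries were above all others and close to each other. Its log2 fold change was 1.91 (SE 0.30, adjusted p = 0.000686) for SFRP2 on COL1 and 1.39 (SE 0.28, adjusted p = 0.00194) for COL1 in PC3 SFRP2 cells. IFI27, a small mitochondrial protein used as an interferon marker, was at 12.5, 18.8 and 34.7 CPM in COL1-PC3 SFRP2 and at 9.67, 8.37 and 8.77 CPM in COL1-PC3. On CCP, IFI27 was at 6.77, 8.87 and 5.29 CPM in PC3 SFRP2 and 7.75, 7.26 and 6.73 CPM in PC3 cells. It was higher by 1.29 (SE 0.32, adjusted p = 0.00594) for SFRP2 on COL1 and 1.65 (SE 0.32, adjusted p = 0.00145) for COL1 in PC3 SFRP2 cells, with the third library highest. Without that library the first of these was 0.82 (adjusted p = 0.005).

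IFI44L, an antiviral protein, moved the other way. It was at 8.37, 25.99 and 7.59 CPM in COL1-PC3 SFRP2 and at 15.99, 17.7 and 27.3 CPM in COL1-PC3. On CCP, IFI44L was at 33.5, 26.4 and 26.7 CPM in PC3 SFRP2 and 26.5, 26.3 and 32.1 CPM in PC3 cells. The second COL1-PC3 SFRP2 library lay just under the CCP libraries and the other 2 far under them, with a log2 fold change of -1.03 (SE 0.37, adjusted p = 0.0367) for COL1 in PC3 SFRP2 cells. Without the third library that call was lost, at -0.74 (adjusted p = 0.142). Its neighbour IFI44 passed in no comparison.

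None of the 4 IFIT genes, whose products bind viral RNA lacking the host's cap marks, was higher in COL1-PC3 SFRP2. In the main fit all 4 had negative fold changes in both comparisons, but the sign depended on the processing. With the GC correction described further on, SFRP2 on COL1 was at 0.34 for IFIT1, 0.10 for IFIT2, 0.22 for IFIT3 and 0.25 for IFIT5, without passing. Without the third COL1-PC3 SFRP2 library these were 0.14, -0.25, 0.01 and -0.42, and IFIT5 passed as lower (adjusted p = 0.0443 by edgeR). IFIT1 was at 87.2, 185 and 49.9 CPM in COL1-PC3 SFRP2 and at 107, 114 and 151 CPM in COL1-PC3. On CCP, IFIT1 was at 174, 133 and 113 CPM in PC3 SFRP2 and 127, 131 and 152 CPM in PC3 cells. The COL1-PC3 SFRP2 libraries spread on both sides of the controls, and the change was -0.21 (SE 0.34, adjusted p = 0.672) for SFRP2 on COL1. IFIT5 was at 24.8, 38.4 and 7.79 CPM in COL1-PC3 SFRP2 and at 36.99, 40.6 and 49.6 CPM in COL1-PC3. On CCP, IFIT5 was at 55.5, 48.3 and 51.8 CPM in PC3 SFRP2 and 48.3, 45.8 and 52.4 CPM in PC3 cells. Every COL1-PC3 SFRP2 library was below every CCP-PC3 SFRP2 library, at -1.12 (SE 0.35, adjusted p = 0.0208), and the third was lowest. IFIT2 and IFIT3 had -0.51 and -0.42 for COL1 in PC3 SFRP2 cells and did not pass. The 4 genes lie side by side and are similar in sequence, so reads may be split between them.

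The 3 IFITM genes, which block fusion of viruses with the cell membrane, were higher in both comparisons. IFITM1 (ENSG00000185885, chromosome 11 of GRCh38, 310041 to 315272) was at 9.16, 22.2 and 73.9 CPM in COL1-PC3 SFRP2 and at 5.76, 2.84 and 5.44 CPM in COL1-PC3. On CCP, IFITM1 was at 11.3, 7.33 and 7.52 CPM in PC3 SFRP2 and 10.7, 9.67 and 9.32 CPM in PC3 cells. The third library was several times above the other 2, and the first lay within the range of the CCP libraries. Its fold change for SFRP2 on COL1 was 2.89 (SE 0.56, adjusted p = 0.00174), and without the third library it was 1.75 (adjusted p = 3.7e-05). IFITM2 was at 100.7, 92.4 and 430.0 CPM in COL1-PC3 SFRP2 and at 117, 78.97 and 61.2 CPM in COL1-PC3. On CCP, IFITM2 was at 46.7, 48.2 and 50.2 CPM in PC3 SFRP2 and 77.8, 70.3 and 52.9 CPM in PC3 cells. The first and second COL1-PC3 SFRP2 libraries overlapped with COL1-PC3, and the third was over 4 times as high.

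IFITM3 was at 689, 656 and 1954 CPM in COL1-PC3 SFRP2 and at 634, 424 and 302 CPM in COL1-PC3. On CCP, IFITM3 was at 306, 290.0 and 319.9 CPM in PC3 SFRP2 and 352, 313 and 239.8 CPM in PC3 cells. The third library again stood above the others. For SFRP2 on COL1, IFITM2 was at 1.27 (SE 0.45, adjusted p = 0.0373) and IFITM3 at 1.28 (SE 0.36, adjusted p = 0.0124), and without the third library neither passed, at 0.18 (adjusted p = 0.548) for IFITM2 and 0.58 (adjusted p = 0.12) for IFITM3. For COL1 in PC3 SFRP2 cells IFITM2 was at 2.10 (SE 0.46, adjusted p = 0.00278) and IFITM3 at 1.85 (SE 0.36, adjusted p = 0.00162), and both still passed without that library, at 1.00 (adjusted p = 0.000705) and 1.14 (adjusted p = 0.00524). The IFITM genes are near-identical in parts, which makes the split of reads between them uncertain. BST2, which encodes tetherin, a protein that holds budding virus at the membrane, was at 0.79, 0.764 and 4.99 CPM in COL1-PC3 SFRP2 and at 1.12, 0.632 and 0.111 CPM in COL1-PC3, so that only the third library was high, and it passed in no comparison.

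Both MX genes, dynamin-like GTPases that trap viral particles, were higher for SFRP2 on COL1. MX1 was at 128, 182 and 167 CPM in COL1-PC3 SFRP2 and at 58.7, 46.6 and 65.6 CPM in COL1-PC3. On CCP, MX1 was at 133, 88.96 and 70.2 CPM in PC3 SFRP2 and 59.6, 77.4 and 87.6 CPM in PC3 cells. The COL1 groups did not overlap, and one CCP-PC3 SFRP2 library lay just above the lowest of COL1-PC3 SFRP2. Its change was 1.48 (SE 0.25, adjusted p = 0.00088) for SFRP2 on COL1 and 0.71 (SE 0.24, adjusted p = 0.0307) for COL1 in PC3 SFRP2 cells, and without the third library the second of these was 0.67 (adjusted p = 0.0551). MX2 was at 15.6, 31.5 and 22.96 CPM in COL1-PC3 SFRP2 and at 5.95, 4.90 and 9.88 CPM in COL1-PC3. On CCP, MX2 was at 24.05, 14.9 and 13.04 CPM in PC3 SFRP2 and 9.28, 10.3 and 11.9 CPM in PC3 cells, where the groups also did not overlap. It rose by 1.73 (SE 0.33, adjusted p = 0.00153) for SFRP2 on COL1, and its value for COL1 in PC3 SFRP2 cells was 0.43 (SE 0.31, adjusted p = 0.295).

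Of the OAS genes, which make the second messenger that activates RNase L, OASL and OAS3 passed and OAS1 and OAS2 did not. OASL, a relative without the synthase activity (ENSG00000135114, chromosome 12 of GRCh38, 121017763 to 121039246), was at 20.2, 30.9 and 38.7 CPM in COL1-PC3 SFRP2 and at 9.11, 8.37 and 10.54 CPM in COL1-PC3. On CCP, OASL was at 19.9, 17.9 and 16.6 CPM in PC3 SFRP2 and 11.3, 10.8 and 11.5 CPM in PC3 cells. PC3 SFRP2 libraries were above PC3 libraries on both surfaces, with a log2 fold change of 1.67 (SE 0.24, adjusted p = 0.000457) on COL1 and 0.69 (SE 0.23, adjusted p = 0.764) on CCP. It passed on COL1 in all 24 alternatives, and on CCP without the third COL1-PC3 SFRP2 library, at 0.69 (adjusted p = 0.0246). OAS1 was at 41.7, 66.97 and 56.9 CPM in COL1-PC3 SFRP2 and at 48.7, 42.5 and 48.3 CPM in COL1-PC3. On CCP, OAS1 was at 61.5, 46.7 and 39.9 CPM in PC3 SFRP2 and 45.9, 51.7 and 52.4 CPM in PC3 cells, and all 4 groups overlapped. OAS3 was higher for SFRP2 on COL1 at 1.08 (SE 0.20, adjusted p = 0.00138), and OAS2 was at 0.48 (SE 0.23, adjusted p = 0.114).

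Of the 8 other effectors, 3 were higher for SFRP2 on COL1 (18.1% of all genes), and for COL1 in PC3 SFRP2 cells 2 were higher and 2 lower. The 2 and 2 are close to the 19.9% and 17.7% of all genes called. LGALS3BP, a secreted galectin-binding glycoprotein, was at 148, 133 and 267 CPM in COL1-PC3 SFRP2 and at 85.5, 64.9 and 57.9 CPM in COL1-PC3. On CCP, LGALS3BP was at 75.1, 71.6 and 76.9 CPM in PC3 SFRP2 and 64.5, 66.2 and 53.5 CPM in PC3 cells. The COL1-PC3 SFRP2 libraries were above all others, with changes of 1.39 (SE 0.24, adjusted p = 0.00111) and 1.29 (SE 0.24, adjusted p = 0.0013). TRIM21, a cytosolic antibody receptor and ubiquitin ligase, was also higher in both, at 0.99 (SE 0.23, adjusted p = 0.00483) and 1.17 (SE 0.23, adjusted p = 0.00166). CMPK2, a nucleotide kinase, was higher for SFRP2 on COL1 at 0.99 (SE 0.24, adjusted p = 0.00567).

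SAMD9, an antiviral and growth-restraining factor, was at 13.4, 28.4 and 1.40 CPM in COL1-PC3 SFRP2 and at 18.8, 29.9 and 40.3 CPM in COL1-PC3. On CCP, SAMD9 was at 54.4, 38.7 and 43.3 CPM in PC3 SFRP2 and 34.1, 28.9 and 41.8 CPM in PC3 cells. Of the 5 genes lower for COL1 in PC3 SFRP2 cells it fell most, at -1.63 (SE 0.54, adjusted p = 0.0266), with the third library lowest. DTX3L, a ubiquitin ligase that works with PARP9, was at 75.4, 88.99 and 46.9 CPM in COL1-PC3 SFRP2 and at 83.3, 80.7 and 97.6 CPM in COL1-PC3. On CCP, DTX3L was at 125, 99.9 and 97.7 CPM in PC3 SFRP2 and 96.1, 82.9 and 108 CPM in PC3 cells. It was lower for COL1 in PC3 SFRP2 cells at -0.61 (SE 0.22, adjusted p = 0.0401), and its partner PARP9 was at -0.31 (SE 0.22, adjusted p = 0.287). PARP9, XAF1 and TRIM22 passed in no comparison.

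Of the MHC class I genes, the heavy chains HLA-B, HLA-C and HLA-E rose, and HLA-F and the light chain B2M did not pass. HLA-B (ENSG00000234745, chromosome 6 of GRCh38, 31353872 to 31367067) was at 60.2, 55.5 and 91.2 CPM in COL1-PC3 SFRP2 and at 32.5, 39.01 and 30.97 CPM in COL1-PC3. On CCP, HLA-B was at 27.8, 30.5 and 23.6 CPM in PC3 SFRP2 and 33.9, 32.9 and 27.3 CPM in PC3 cells. All COL1-PC3 SFRP2 libraries were above the other 9. The change was 1.01 (SE 0.22, adjusted p = 0.00283) for SFRP2 on COL1 and 1.34 (SE 0.22, adjusted p = 0.000715) for COL1 in PC3 SFRP2 cells, and the second of these passed in 23 of 24 alternatives. HLA-C was at 79.00, 76.8 and 169 CPM in COL1-PC3 SFRP2 and at 51.1, 47.1 and 41.3 CPM in COL1-PC3. On CCP, HLA-C was at 45.6, 44.7 and 37.7 CPM in PC3 SFRP2 and 48.5, 43.8 and 40.8 CPM in PC3 cells. It rose by 1.22 (SE 0.26, adjusted p = 0.003) for SFRP2 on COL1, with the third library well above the other 2, and the value without that library was 0.76 (adjusted p = 4.07e-05).

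HLA-E, the chain that is read by the NKG2A receptor of natural killer cells (ENSG00000204592, chromosome 6 of GRCh38, 30489509 to 30494194), was at 59.1, 65.3 and 82.3 CPM in COL1-PC3 SFRP2 and at 31.6, 27.96 and 26.9 CPM in COL1-PC3. On CCP, HLA-E was at 32.5, 31.6 and 33.01 CPM in PC3 SFRP2 and 28.95, 31.6 and 26.7 CPM in PC3 cells. It was higher by 1.26 (SE 0.18, adjusted p = 0.000489) for SFRP2 on COL1 and by 1.09 (SE 0.18, adjusted p = 0.000784) for COL1 in PC3 SFRP2 cells, and its COL1-PC3 SFRP2 libraries were above all others. B2M was at 192, 256 and 199 CPM in COL1-PC3 SFRP2 and at 252, 282 and 265 CPM in COL1-PC3. On CCP, B2M was at 246, 257 and 243 CPM in PC3 SFRP2 and 275, 260.3 and 237 CPM in PC3 cells. All groups overlapped, at -0.31 (SE 0.16, adjusted p = 0.157) for SFRP2 on COL1 and -0.21 (SE 0.16, adjusted p = 0.342) for COL1 in PC3 SFRP2 cells. HLA-F, at 128 counts in all, passed in no comparison. HLA genes share long stretches of sequence and vary between people, so reads may be split between them.

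TAP1 and TAP2 encode the 2 chains of the peptide transporter, and TAP1 alone rose. TAP1 (ENSG00000168394, chromosome 6 of GRCh38, 32845209 to 32853816) was at 26.7, 25.2 and 31.9 CPM in COL1-PC3 SFRP2 and at 10.2, 8.06 and 7.77 CPM in COL1-PC3. On CCP, TAP1 was at 10.4, 10.2 and 11.5 CPM in PC3 SFRP2 and 7.14, 7.26 and 7.64 CPM in PC3 cells, where PC3 SFRP2 was also above PC3 in every library. The COL1-PC3 SFRP2 libraries were close to each other, and the log2 fold change was 1.69 (SE 0.20, adjusted p = 0.000187) for SFRP2 on COL1 and 1.38 (SE 0.20, adjusted p = 0.000535) for COL1 in PC3 SFRP2 cells. It passed for SFRP2 on COL1 in all 24 alternatives. TAP2 averaged 30.8 ± 16.6 CPM across the COL1-PC3 SFRP2 libraries and 44.1 ± 3.44 CPM across the COL1-PC3 libraries (mean ± SD of 3), a change of -0.51 (SE 0.31, adjusted p = 0.229). Part of TAP1's exonic bases (14.2%) is shared with the antisense gene PSMB8-AS1.

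**Figure D3:**
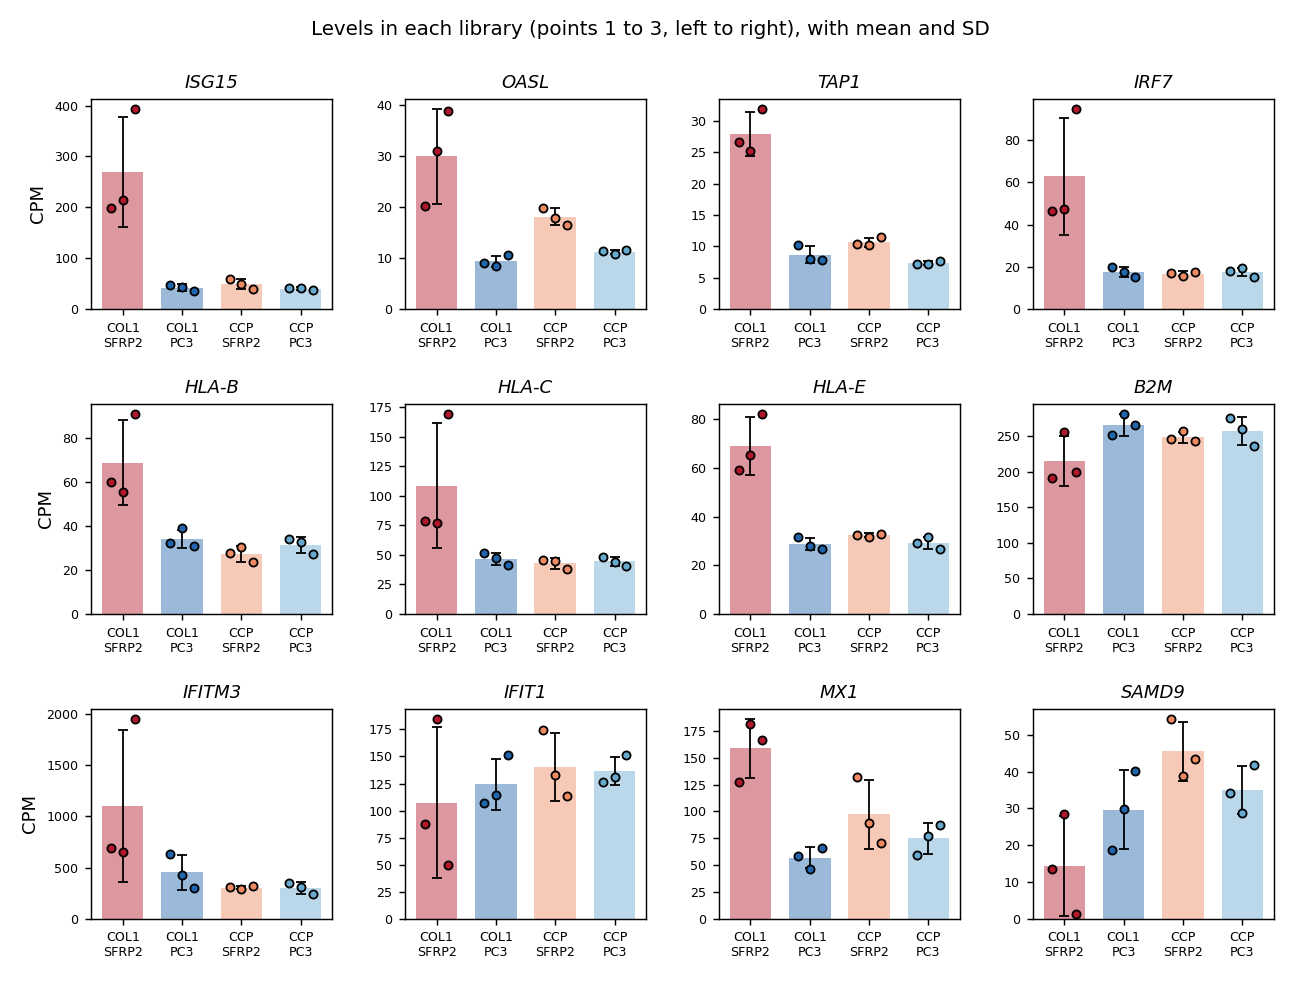
CPM in each library (points, libraries 1 to 3 from left to right) with the mean (bars) and SD (n = 3 per group) for 12 of the genes, each panel on its own axis from 0. ISG15, IRF7, TAP1, HLA-B, HLA-C and HLA-E are higher in COL1-PC3 SFRP2 than in the other groups, with the third library highest in each, and B2M and IFIT1 overlap between groups.

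The test of whether the effect of SFRP2 differed between COL1 and CCP passed for 8 genes, all with a larger effect on COL1, where 3.79% of all genes were called in that direction and 2.53% in the other. The difference in log2 fold change was 2.38 for ISG15 (SE 0.36, adjusted p = 0.0168 by the same test), 3.07 for IFITM1 (0.76, 0.0395), 1.91 for IRF7 (0.37, 0.0294) and 1.89 for IFI35 (0.42, 0.0331). It was 1.26 for IFI6 (0.33, 0.0416), 1.22 for HLA-B (0.30, 0.0395), 1.15 for TAP1 (0.29, 0.0395) and 1.10 for HLA-E (0.26, 0.0367). HLA-C was just outside, at 1.28 (0.0508). Thus for the other 14 genes that were higher for SFRP2 on COL1, the effect was not shown to differ from that on CCP. These calls were sensitive to single libraries, as were those of the whole table, where 1287 genes passed in the main fit. When any CCP library, or the second or the third COL1-PC3 library, was left out, 0 or 1 passed. Of all genes tested, 2 to 92 passed in those fits. Without the third COL1-PC3 SFRP2 library 16 passed (9.88% of all genes with a larger effect on COL1 and 10.3% with a smaller one). With the second version of that library 0 passed, and 0 of 20404 genes in all. Without the second COL1-PC3 SFRP2 library 14 passed with a larger and 5 with a smaller effect on COL1 (12.7% and 14.8% of all genes).

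The genes that rose were mostly rich in G and C, as were the genes that rose in the whole table. For SFRP2 on COL1, 19 of 23 genes with a GC content of 50% or more were higher, against 39.9% of all genes of that content. Below 50%, 3 of 21 were higher (MX1, MX2 and USP18), against 3.23% of all genes below 50%. For COL1 in PC3 SFRP2 cells, 19 of 23 of the first kind were higher, against 44.1% of all genes of that content. Of the second kind 2 of 21 were higher and 5 lower, against 3.49% and 29% of all genes below 50%. The 8 genes with an effect that differed between surfaces all had 50% or more. Of all genes of that content, 8.81% were called in that direction. Across the 44 genes, Spearman's correlation of GC content with the log2 fold change was 0.717 for SFRP2 on COL1, 0.81 for COL1 in PC3 SFRP2 cells and -0.188 for SFRP2 on CCP, and over all 20280 genes with a value it was 0.657, 0.701 and 0.077. Genes are not independent replicates, and these correlations share the COL1-PC3 SFRP2 libraries. Among those libraries the second was highest for all 21 genes below 50% GC, and the third was highest for 19 of the 23 others. The part of GC content in the results was not tested beyond a correction of each library for it.

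After that correction, 21 genes were higher for SFRP2 on COL1 and 0 lower, of which 17 were among the 22, and 9.4% of all genes were called higher and 8.26% lower. HLA-C, IFI6, IFITM2, IFITM3 and IRF1 no longer passed, with HLA-C at 0.11 (adjusted p = 0.618) and IFI6 at 0.46 (adjusted p = 0.158). OAS1, OAS2, PARP9 and B2M passed with it, at 1.07 (adjusted p = 0.0145) for OAS1 and 0.93 (adjusted p = 0.0315) for B2M. ISG15 was at 1.66 (adjusted p = 3.56e-07), IRF7 at 0.61 (adjusted p = 0.00461) and TAP1 at 0.94 (adjusted p = 0.000881). MX1 was at 2.22 (adjusted p = 0.00096). For COL1 in PC3 SFRP2 cells 10 genes were higher and 0 lower, 8 of them among the 26 (8.75% and 7.6% of all genes), so that none of the 5 falls passed, and IFI44L was at 0.09 (adjusted p = 0.864) and IFIT5 at -0.03 (adjusted p = 0.93). The correction left 2 of the 8 genes with an effect that differed between surfaces, ISG15 at 1.28 (adjusted p = 0.00285) and HLA-B at 0.80 (adjusted p = 0.032), where 1.2% of all genes were called in that direction. With the correction and without the third COL1-PC3 SFRP2 library, some genes passed the other way. IFITM2 and UBE2L6 were then lower for SFRP2 on COL1, at -0.28 (adjusted p = 0.0401) and -0.29 (adjusted p = 0.0222), UBE2L6 was lower for COL1 in PC3 SFRP2 cells at -0.33 (adjusted p = 0.00923), and IFIT5 was higher for SFRP2 on COL1 at 0.38 (adjusted p = 0.0182).

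**Figure D4:**
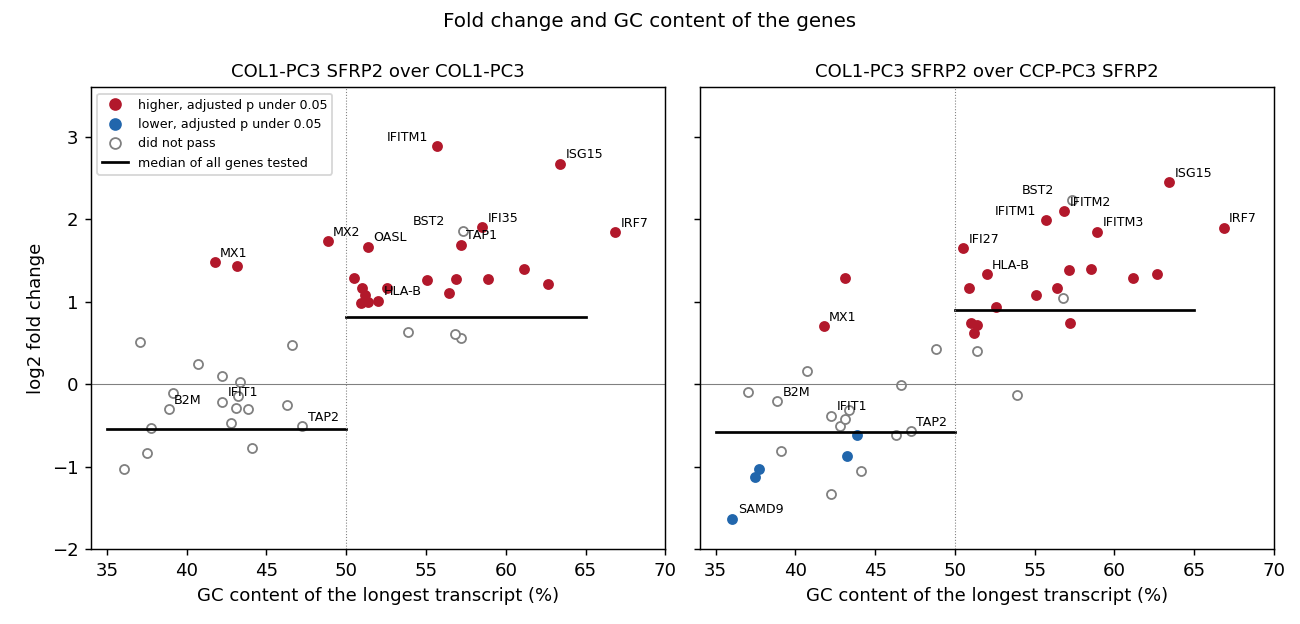
Log2 fold change of the 44 tested genes against the GC content of the longest transcript, for COL1-PC3 SFRP2 over COL1-PC3 (left) and over CCP-PC3 SFRP2 (right). Red and blue points passed as higher or lower, open points did not, black lines are the medians of all tested genes below and above 50% GC, and 19 of the 23 genes at or above 50% were higher in each panel.

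The rest of the pathway was covered by lists of its ligands, receptors, factors and effectors. The interferons themselves were hardly detected: of 15 ligand genes 11 had 0 counts in all 12 libraries, IFNE had 106 counts in total, IFNL1 11, IFNB1 9 and IFNL2 4, and neither of the 2 tested (IFNE and IFNL1) passed in edgeR or was under an unadjusted p of 0.05 for SFRP2 on COL1. A change in the other ligands was not detectable at this depth. For the lists that follow, the shares of all genes called were 18.1% higher and 17.1% lower for SFRP2 on COL1, and 19.9% and 17.7% for COL1 in PC3 SFRP2 cells. Of 9 receptor and kinase genes, 2 were higher, a share near that of all genes, and 4 lower for SFRP2 on COL1. IFNAR1, a chain of the type I interferon receptor, was lower at -1.09 (SE 0.19, adjusted p = 0.000969), IFNGR1, of the interferon gamma receptor, at -1.13 (SE 0.29, adjusted p = 0.00731), and JAK2, its kinase, at -1.84 (SE 0.34, adjusted p = 0.0015). The values for COL1 in PC3 SFRP2 cells were -1.04, -1.19 and -1.51, each passing as well.

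Of 8 signalling factors tested, 4 were higher and 1 lower for SFRP2 on COL1, beside 18.1% and 17.1% of all genes. IRF3, which starts interferon transcription, was higher at 1.18 (SE 0.25, adjusted p = 0.00284), and IRF5 at 1.09 (SE 0.24, adjusted p = 0.00334). PTPN6, a phosphatase that dampens JAK signalling, was at 1.03 (SE 0.38, adjusted p = 0.0461), and passed in 7 of the 24 alternatives. Of 10 sensors and adaptors, 5 were higher and 3 lower, beside the same shares of all genes. TRIM25, the ligase of the RIG-I pathway, was higher at 1.14 (SE 0.17, adjusted p = 0.000501), and IKBKE, a kinase of IRF3, at 1.15 (SE 0.30, adjusted p = 0.00909). TBK1, the related kinase, was lower at -1.47 (SE 0.38, adjusted p = 0.00791), and EIF2AK2, the RNA-activated kinase PKR, at -1.25 (SE 0.34, adjusted p = 0.0106).

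Of 33 other interferon-induced genes, 7 were higher and 2 lower for SFRP2 on COL1, and 4 were higher and 8 lower for COL1 in PC3 SFRP2 cells. The 7 are close to the 18.1% of all genes called higher, and the 4 and 8 stand beside 19.9% and 17.7% of all genes. The higher ones included PARP10 at 2.23 (SE 0.45, adjusted p = 0.0021) and GBP1, a guanylate-binding protein, at 1.61 (SE 0.50, adjusted p = 0.0207). NMI, the partner of IFI35, was lower at -1.25 (SE 0.34, adjusted p = 0.0106), and GBP3 at -1.08 (SE 0.34, adjusted p = 0.0218). For SFRP2 on COL1 the median log2 fold change of these 33 was 0.134, against 0.99 for the 44 genes of the main list and 0.005 for all genes. The lists differ in GC content, with a median of 42.36% for these 33 and 50.71% for the 44. All genes below 50% GC had a median log2 fold change of -0.542.

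Of 16 other antigen presentation genes, 8 were higher and 1 lower for SFRP2 on COL1, beside 18.1% and 17.1% of all genes. For COL1 in PC3 SFRP2 cells 9 were higher and 5 lower, beside 19.9% and 17.7% of all genes. For SFRP2 on CCP 0 passed, but all 16 had positive fold changes, 6 of them at an unadjusted p under 0.05 by edgeR. The median log2 fold change for SFRP2 was 0.561 on CCP and 0.674 on COL1, against -0.044 and 0.005 for all genes. PSMB8, a catalytic subunit of the immunoproteasome, which cuts peptides for MHC class I, was at 43.5, 44.2 and 44.1 CPM in COL1-PC3 SFRP2 and at 16.5, 9.003 and 13.2 CPM in COL1-PC3. On CCP, PSMB8 was at 19.9, 16.6 and 19.5 CPM in PC3 SFRP2 and 15.4, 11.3 and 10.9 CPM in PC3 cells. For SFRP2 on COL1 it was higher by 1.77 (SE 0.23, adjusted p = 0.000323), and the 3 COL1-PC3 SFRP2 libraries, the third included, were nearly equal. PSMB9, its neighbour in the same complex, was higher at 1.66 (SE 0.32, adjusted p = 0.00169), and CALR, the chaperone calreticulin of the loading complex, at 1.16 (SE 0.15, adjusted p = 0.000286). These 3 passed in all 24 alternatives, including the second version of the third library. NLRC5, the activator of MHC class I transcription, was at 2.48 (SE 0.52, adjusted p = 0.00255). Of the MHC class II genes 3 were tested, 0 passed in edgeR or were under an unadjusted p of 0.05 for SFRP2 on COL1, and HLA-DMA was higher for COL1 in PC3 SFRP2 cells at 0.99 (SE 0.30, adjusted p = 0.0175).

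With the GC correction the counts of these lists for SFRP2 on COL1 became 0 higher and 3 lower of the receptors and kinases, 0 and 0 of the signalling factors, 2 and 1 of the sensors and adaptors, 12 and 0 of the other interferon-induced genes and 7 and 1 of the antigen presentation genes. These stand beside 9.4% of all genes called higher and 8.26% lower in that fit. With the second version of the third library, 2 of the other interferon-induced genes and 4 of the antigen presentation genes were higher, and 0 genes of the other lists passed. In that fit 0.368% of all genes were called higher and 0.725% lower.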

How the data were processed

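RNA was made into libraries with the SENSE mRNA-Seq kit, and reads were aligned by the authors with STAR to GRCh38 and counted per Ensembl gene, as the methods and labels state. The deposited values are raw counts with no normalization, in tables of which the one with 3 libraries per group was used. The counting tool and its strand setting are not given in the sources used here. In the deposited tables, 56 further columns of samples were not used, because they repeat these libraries or match no label.

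Genes with at least 10 counts over the 12 libraries were fitted in 1 model of 4 groups with edgeR 4.0.16 (R 4.3.3; TMM scaling, quasi-likelihood F-tests, robust prior), and p-values were adjusted by Benjamini-Hochberg over all 20364 genes, with a threshold of 0.05. CPM are counts over the TMM-scaled library size, times 1000000. The 5 comparisons were SFRP2 on COL1 and on CCP, COL1 in PC3 SFRP2 and in PC3 cells, and the difference between both SFRP2 effects. The scripts were tested on simulated counts. Depth was 5529459 to 9975972 counts per library.

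Alternatives were DESeq2 1.42.0 or its size factors, other count filters, the 6 libraries of the compared groups alone, leaving out each library, the replicate number as a block, a correction for GC content and transcript length, the second version of the third COL1-PC3 SFRP2 library, and the deposited counts of a second alignment, which has 11 of the 12 libraries. The correction subtracted, as an offset, a smooth over GC content and length of each library's difference from the mean of the libraries outside COL1-PC3 SFRP2, so it also takes up real changes that follow these properties. A GC value existed for 99.6% of the genes. The robust prior was set after the counts had been read, and the fit without it gave 23, 26 and 10 genes, beside 22, 26 and 8, for SFRP2 on COL1, COL1 in PC3 SFRP2 cells and the difference between SFRP2 effects. That fit, and the second library version with the GC correction, were chosen after seeing the data.

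The gene list, its roles and the pathway lists were chosen with earlier results of these data known. Values in every library are given for the 10 genes of largest change in each direction among those passing, for those passing in the other comparisons, and for 16 genes named as classic members. From the pathway lists, genes passing with a change over 1 on the log2 scale are named, and some genes are not reported here. Exons of 20 of the 45 genes overlap other genes.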

Additional observations from a re-analysis of the deposited data

Results flagged for a closer look

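For 8 genes, the SFRP2 effect on COL1 differed from that on CCP by the test of the difference itself. In that direction 3.79% of all genes were called, and 8.81% of those with a GC content of 50% or more. On the log2 scale the effect on COL1 exceeded that on CCP by 2.38 for ISG15, 1.26 for IFI6, 1.89 for IFI35, 3.07 for IFITM1, 1.91 for IRF7, 1.22 for HLA-B, 1.10 for HLA-E and 1.15 for TAP1. Adjusted p-values by edgeR lay between 0.0168 for ISG15 and 0.0416 for IFI6. All 8 had a GC content of 50% or more, and their levels in the third COL1-PC3 SFRP2 library were the highest of the 12 libraries. The parts of GC content and of that library in the difference were not tested beyond the alternatives given. With the replicate number as a block 0 of the genes passed. When any CCP library, or the second or the third COL1-PC3 library, was left out, 0 or 1 passed.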

How the results depend on the processing

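Counts of genes passing are out of the 44 tested, or 43 or 45 in some fits. Percentages in brackets are the shares of all genes called higher and lower in the same fit. For SFRP2 on COL1 (22 genes), 3 passed with the second version of the third COL1-PC3 SFRP2 library (0.368% and 0.725%). With that version and the GC correction 10 passed (3.99% and 3.9%). Leaving out 1 library at a time gave 18 (11.3% and 10.7%) to 33 (20.3% and 21%). For COL1 in PC3 SFRP2 cells (26 genes), 15 passed in a fit of the compared groups only (16.5% and 9.91%). With the GC correction 10 passed (8.75% and 7.6%), and 13 with it and without the third library (10.1% and 8.99%). With the second version 0 passed (0.0196% and 0%), and 1 with that and the GC correction (2.48% and 1.36%). Leaving out 1 library gave 17 (14.4% and 14.4%) to 34 (20.9% and 22.7%). For the difference between SFRP2 effects (8 genes, 3.79% and 2.53%), 16 passed with DESeq2 (10.4% and 8.84%). Without the count filter 15 passed, 13 with a larger and 2 with a smaller effect on COL1 (4.97% and 6.2%). The second alignment gave 16, where 4008 of 19267 genes passed in all. With the GC correction 2 passed (1.2% and 1.69%). With the second version 0 passed (0% and 0%), and 0 with that and the GC correction (0.0246% and 0.0345%). Leaving out 1 library gave 0 (0% and at most 0.01%) to 19 (12.7% and 14.8%). The 19 came without the second COL1-PC3 SFRP2 library, and 5 of them were in the other direction. For SFRP2 on CCP (0 genes), 7 passed in a fit of the compared groups only (2.26% and 2.62%). With the GC correction and without the third library 4 passed (1.72% and 2.22%), and 1 with the second alignment (0.68% and 1.4%). Leaving out 1 library gave 0 to 1, the 1 without the third COL1-PC3 SFRP2 library (0.662% and 1.25%). For COL1 in PC3 cells (0 genes), 1 passed with the GC correction and without the third library (1.08% and 0.679%). The causes were not tested.

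With the replicate number as a block, 21 genes passed for SFRP2 on COL1 (15.4% of all genes called higher and 14.9% lower). For COL1 in PC3 SFRP2 cells 23 passed (18% and 16% of all genes). For the difference between SFRP2 effects 0 passed (0% and 0.00982% of all genes), and 0 in the other 2 comparisons. Libraries of the same number shared only that number: 1 of 18 such pairs had a correlation of deviations over 0.1 (range -0.242 to 0.136), and 3 of 12 libraries correlated best with their own number.

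Some genes changed sign, and those called the other way are given above with the GC correction. For SFRP2 on COL1, with the GC correction B2M was at 0.93. With it and without the third library, B2M was at 0.46, IFIT5 at 0.38, IFITM2 at -0.28 and UBE2L6 at -0.29. IFITM2 was at -0.11 with the second version, and at -0.37 with that and the GC correction, where IFITM3 was at -0.022. For COL1 in PC3 SFRP2 cells, with the GC correction, with it and without the third library, and with the second version and the GC correction, IFI44L was at 0.085, 0.065 and 0.034, HLA-C at -0.0022, -0.096 and -0.056, and UBE2L6 at -0.25, -0.33 and -0.096. B2M was at 0.97 and 0.49 in the first and second of these, IFIT5 at 0.10 in the second and IFITM1 at -0.010 in the last.

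Of the 22 genes, ISG15, OASL and TAP1 passed in all 24 alternatives. Leaving out the third COL1-PC3 library lost IFITM2, IFITM3, IRF1 and USP18, and leaving out the second lost IFITM2 and IFITM3. IFITM2 passed in 8 of the 24. Depth limits what can be said of DHX58, XAF1, TRIM22, BST2, HLA-F and USP18, each with at most 255 counts over 12 libraries.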
